A study of Mus musculus with 107 samples.

Results

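Translation initiation factors, the eIF proteins that load the ribosome onto an mRNA and find its start codon, were followed as mRNAs in single mouse eggs. The set holds 52 of the 21564 gene symbols in the deposited table: those starting Eif1 to Eif6, without the Eif1ad genes, the Eif4a3l copies, Eif4e1b, Eif4enif1 and symbols marked as pseudogenes (-ps). Of these, 50 had enough counts to be tested. The rule for membership uses gene symbols and no measured value, though it was set with earlier results of these data known.

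An initiating ribosome is built in steps. eIF2 brings the initiator tRNA to the small subunit, helped by eIF1, eIF1A, eIF3 and eIF5, and eIF2B recharges eIF2 with GTP. eIF2 kinases block that recharging. eIF4E binds the cap, eIF4G is the scaffold, and the helicase eIF4A with its helpers eIF4B and eIF4H unwinds the leader, while 4E-BPs keep eIF4E from eIF4G. Before activation, a fully grown egg does not transcribe, so its mRNA levels reflect storage and decay. Where mRNAs are captured by their poly(A) tails, tail length enters as well. These cannot be told apart in these counts. For mutant and activated eggs, whether transcription had begun was not tested.

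The eggs came from C57BL/6J females of 2 to 3 months, primed with 5 IU of pregnant mare serum gonadotropin 48 h before collection. Oocytes were held in 2.5 µM milrinone, a block to meiotic resumption, released to mature in culture, and sampled singly 38 to 40 h past germinal vesicle breakdown. There were 29 wildtype eggs and 61 Mos -/- eggs (22 M1, 18 M2 and 21 M3, names the labels do not define, which match the growth number given per egg in the deposited egg table). Another 17 wildtype eggs were activated: 10 mM strontium chloride was given for 2 h in calcium-free medium, starting 15 to 16 h past breakdown. All 29 unactivated wildtype eggs had growth number 1, while 8 activated eggs had 1 and 9 had 2. Against wildtype, genotype and growth number thus cannot be told apart for M2 and M3, and the activated group mixes growth numbers. Mos is the kinase that feeds MAP kinase signalling in the egg, and strontium makes eggs release calcium and leave metaphase without sperm. Library names put the activated eggs on 1 plate of batch 2 that held no other group, the batch 2 wildtype eggs on another and the batch 2 mutant eggs on 2 more. In batch 2, then, plate cannot be told apart from wildtype, mutant or activated, while M1, M2 and M3 shared plates. In batch 1 no plate is named. Smart-seq2 libraries were made, which cover whole transcripts with a poly(A) tail and carry no strand.

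No label ties an egg to an animal, so eggs were not replicates. They were pooled instead, by adding up the counts of a group within a batch, which gave 9 sums (wildtype, M1, M2 and M3 in batches 1 and 2, activated in batch 2) of 5436993 to 36209306 counts. Single eggs held 2609358 to 9132471 counts in batch 1 and 44 to 1551993 in batch 2. Mos itself was at 6.52 and 31.6 CPM (counts relative to the sum's total, in the usual CPM unit, here before TMM scaling) in the wildtype sums, 0.868 to 13.3 in the 6 mutant sums and 5.33 in the activated sum. The labels do not say what the mutant allele lacks, so these reads do not check the labels. In the M1 sums, 110 of 150 and 92 of 137 Mos counts lay in eggs 6 and 21. Another 3 mutant eggs had under 10000 counts, and 9 wildtype eggs of batch 2 had over 35% of their counts in 50 genes. All 10 egg markers were detected in each sum, at a summed 2629 to 11360 CPM. The 16 granulosa and cumulus markers summed to 207 to 338 CPM in wildtype and mutant sums and 101.9 in the activated sum, with Ptx3 at 0 throughout. The 5 blood markers summed to at most 25.2 CPM, with Ptprc, Tyrobp and Hba-a1 at 0 throughout, and the 7 of theca, stroma and endothelium to 42.5 to 118.04 CPM, with Col1a2 at 0.

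Sequence at both ends bears on how such mRNAs are handled. Many mRNAs of the translation machinery start with a C followed by pyrimidines, the TOP tract through which mTOR and LARP1 act. In RefSeq (GRCm38.p6), a start with C and at least 4 further pyrimidines occurred in 2 of the 41 members with a listed start (4.88%), against 3.01% of 27025 genes. The match was required at the annotated start base itself, so a tract starting a few bases away was not counted. Members without a listed start were not searched. Both are shown from 10 bases before the start to 20 after it, with the pyrimidine run in capitals.
Eif2s3x, chrX:94212632-94212661, minus strand: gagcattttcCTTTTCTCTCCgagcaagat
Eif3f, chr7:108934405-108934434, plus strand: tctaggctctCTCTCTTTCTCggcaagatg
Neither of these genes passed a test in the comparisons of groups.

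Stored egg mRNAs are often lengthened at the tail through a cytoplasmic polyadenylation element near the cleavage signal. Searching the last 100 bases of the 3′ UTR on the mRNA strand (GENCODE M21, GRCm38), TTTTAT or TTTTAAT was found in 4 of 47 members with a window (8.51%) and in 17.9% of 19353 genes. They were Eif1a, Eif1ax, Eif3j2 and Eif4e3. A cleavage signal, AATAAA or ATTAAA, was found in 38 members (80.9%), against 78.6% of genes. Of the 16 members that differed between groups below, 15 had a window and 0 held the element. Of those 15, 12 held a cleavage signal. A 30-base stretch is shown for Eif1ax, which holds the element, and for some of the members that differed. The element or the cleavage signal is in capitals.
Eif1ax, chrX:159389899-159389928, plus strand: TTTTATgctgcacaaatatatgtataagtg
Eif4h, chr5:134619877-134619906, minus strand: tcttttaAATAAAagagaaccttacataac
Eif4b, chr15:102097144-102097173, plus strand: tctccaAATAAAtccagtctttaaagttga
Eif4e, chr3:138559667-138559696, plus strand: aggattggaATTAAAtgcgttcactaccga
Eif4a3, chr11:119288363-119288392, minus strand: tttacATTAAAcgtggacattttcctgtga
Eif3c, chr7:126546455-126546484, minus strand: cctatgtgaAATAAAtATTAAAaaaaaaaa
Eif5, chr12:111546723-111546752, plus strand: atgcatgaaaacatgttggtaatttcattg
Eif2s1, chr12:78886981-78887010, plus strand: agcgctgttacacagagaaaccctgtctcc
The members that were higher and those that were lower both include an annotated end with ATTAAA. The annotated ends of Eif5 and Eif2s1, which were lower, hold neither signal in this window. Neither does that of Eif2d, which was higher and is not shown. These are matches of letters and not tested sites.

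The factors differed widely in level per length. Levels are given as TMM-scaled CPM per kilobase of exon, as the median over the 9 sums. Eif5a, which carries the hypusine that helps ribosomes through difficult stretches, was highest at 378, followed by Eif2b1, a regulatory subunit of eIF2B, at 345. Eif1, which guards start codon choice, stood at 228, and the cap-binding paralog Eif4e3 and Eif1b at 192 each. These 5 had the highest medians, and Eif1 and Eif1b among them are paralogs.

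Subunits of 1 complex did not share 1 level. Eif2b1 was 145.1-fold above Eif2b5, the catalytic subunit of the same complex, which stood at 2.38. Within eIF3, the large scaffold of 14 listed genes, Eif3i was highest at 36.9 and Eif3j2 lowest at 0.923, a ratio of 40.0. The core eIF2 subunits Eif2s2 (11.4) and Eif2s3x (1.44) differed in level, and Eif2s3y, the Y-linked copy, had 0 counts among 151997047, which allows up to 0.0197 CPM. Eif4ebp3 had 3 counts, all in activated egg 8, and its exons overlap another gene over 67.3% of their length.

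**Figure D1:**
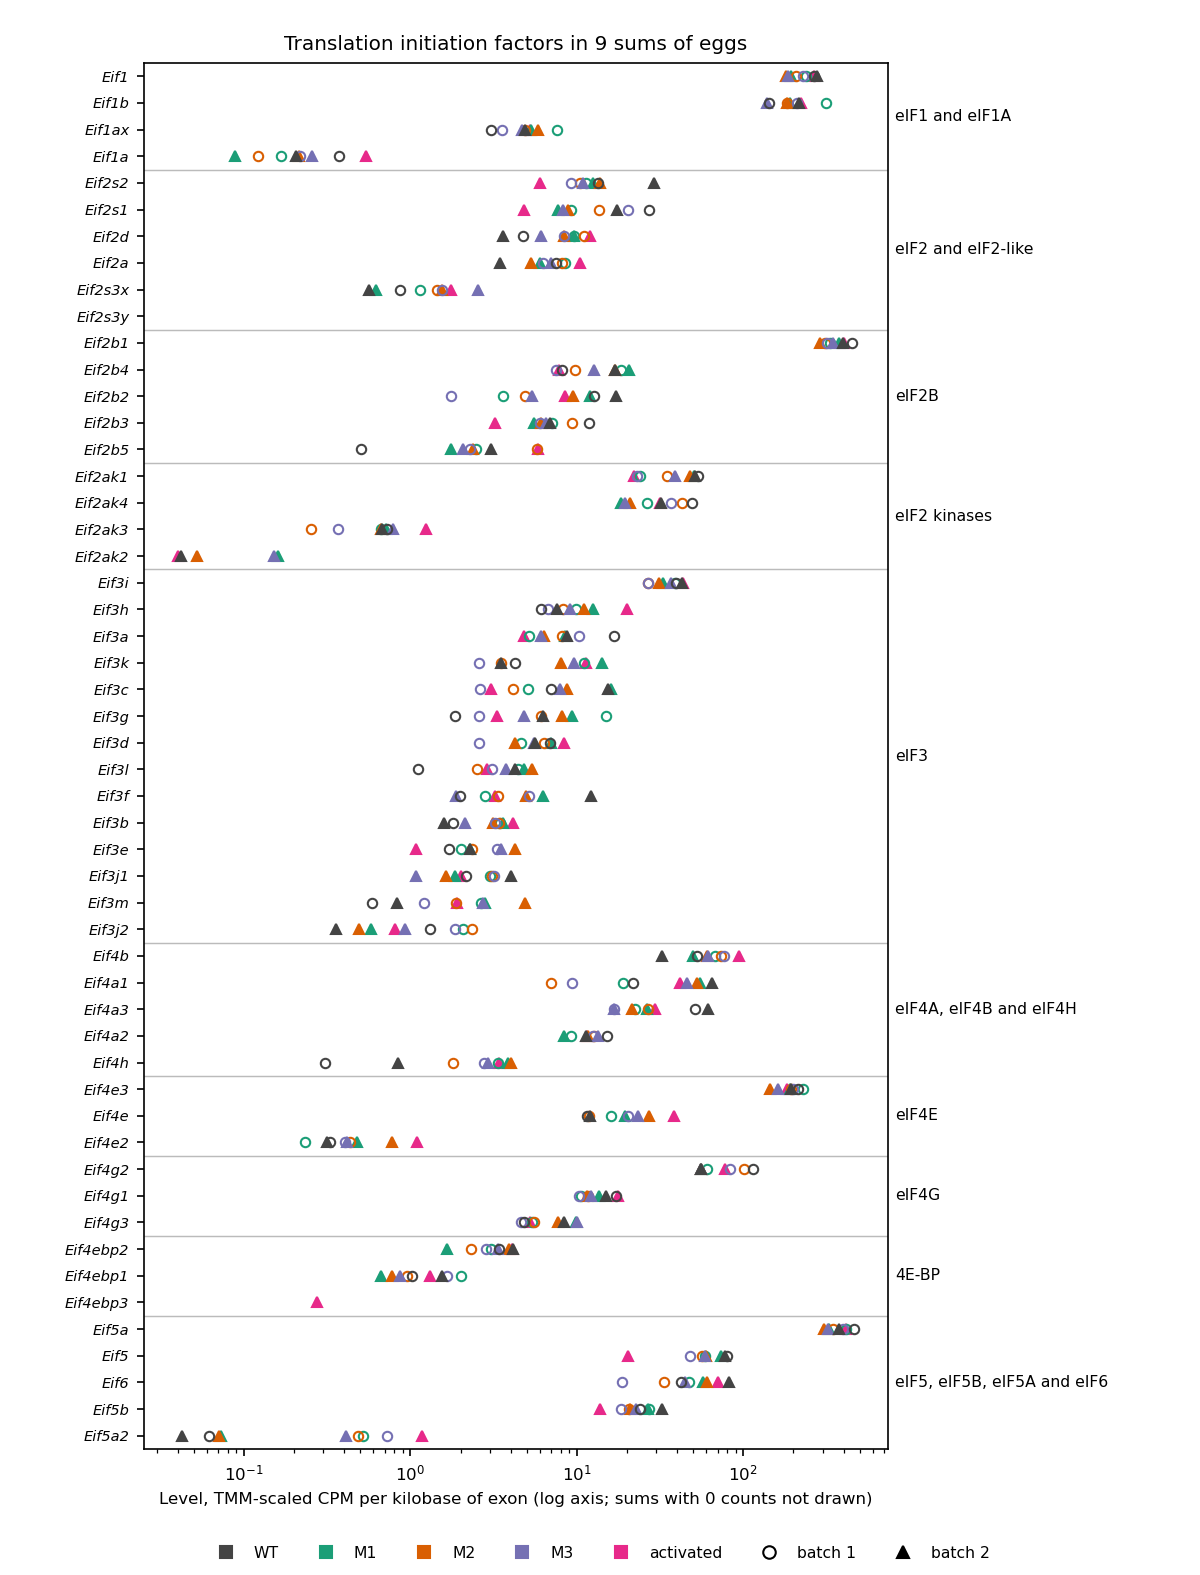
Level of each initiation factor in the 9 sums, in TMM-scaled CPM per kilobase of exon on a log axis, ordered by complex and by median level; colours mark groups, open circles batch 1 and filled triangles batch 2. Eif5a, Eif2b1, Eif1, Eif1b and Eif4e3 lie near the right edge in every sum, while Eif4h and Eif2d of wildtype sums lie left of all mutant sums.

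In families of paralogs, 1 copy often held most of the level per length. Of Eif4e, Eif4e2 and Eif4e3 together, Eif4e3 held 82.4 to 94.7% across the sums. Eif4e, the main cap-binding protein of most cells, held 5.12 to 17.1%, with the highest share in activated eggs. Eif4e1b lies outside the set and was left out of this total, so these are not shares of all eIF4E mRNA. Exons of Gm20696, on the same strand, overlap 14.8% of those of Eif4e3. Eif4g2, a scaffold that lacks the eIF4E-binding site, held 70.3 to 85.3% of the eIF4G family. Eif5a held at least 99.7% of eIF5A, and Eif1ax 89.1 to 98.4% of eIF1A.

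Other families had no fixed leader. Eif4a1 held 35.4 to 67.3% of the Eif4a1 and Eif4a2 total in batch 1 and 77.3 to 86.8% in batch 2, so that this ratio went with the batch in all 4 groups present in both. Eif2ak1, the heme-regulated kinase, held 38.4 to 72.5% of the eIF2 kinases and Eif2ak4, the amino acid sensor GCN2, 26.3 to 61.0%. The stress kinases Eif2ak3 and Eif2ak2 held at most 2.27% and 0.256%. Eif1 held 43.1 to 65.1% of the eIF1 pair, or 52.5 to 73.1% when the longest transcript was used for length, so which copy leads in some sums depends on that choice. Near-identical copies such as Eif1a and Eif1ax, or Eif3j1 and Eif3j2, can trade or lose reads in counting, which makes their shares uncertain.

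**Figure D2:**
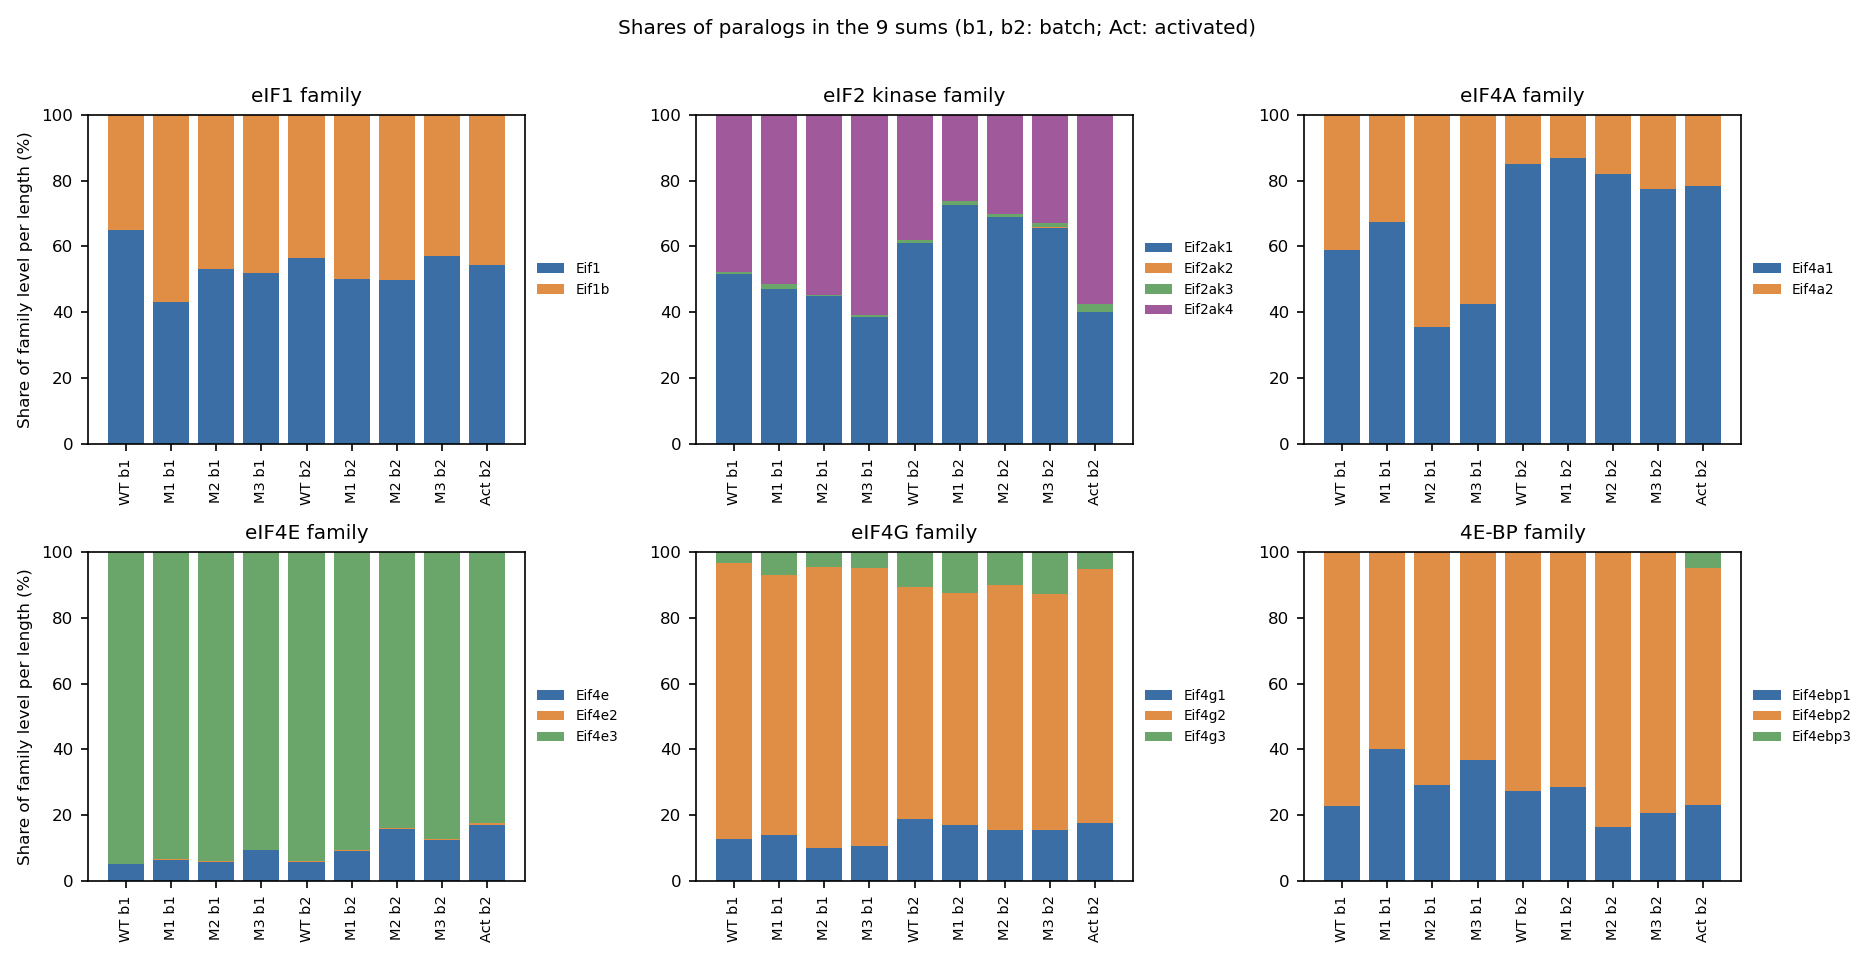
Share of each paralog in the level per length of its family, in percent, for each of the 9 sums (bars, b1 and b2 for the batch). Eif4e3 fills most of every eIF4E bar, which leaves out Eif4e1b. The Eif4a1 share is lower in all batch 1 bars (at most 67.3%) than in batch 2 bars (at least 77.3%).

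Mutant eggs were compared with wildtype eggs to ask how the egg's mRNAs differ without Mos. After TMM scaling, the wildtype totals over all members were 7910 and 7264 CPM. The 6 mutant sums lay between 5940 and 6547, and the activated sum was at 6815. Before scaling, members made up 0.7039% and 0.6249% of counts in wildtype batches 1 and 2, and 0.6001 to 0.6891% in mutant sums. The activated sum held 0.7387%, above all others, and wildtype batch 2 lay within the mutant range. Both wildtype totals were thus the highest only after scaling. The CPM of members in sums below are TMM-scaled as well. Of 50 members tested, 4 rose and 5 fell (edgeR quasi-likelihood test, Benjamini-Hochberg adjusted p under 0.05), or 18%, where 9.38% of all 13832 genes were called, 5.36% higher and 4.03% lower. DESeq2 called 12, where 12.4% of all genes were called, and limma voom 13, where 12.1% were. The median log2 fold was -0.25 over the members and 0.06 over all genes. The members called were the eIF4A helpers Eif4h and Eif4b, Eif2d and Eif3m on the higher side, and Eif2s1, Eif2s2, Eif2b2, Eif2ak4 and Eif4a3 on the lower side. Since nothing says that sums came from separate animals, these p-values measure only the spread between sums, which may be technical.

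**Figure D3:**
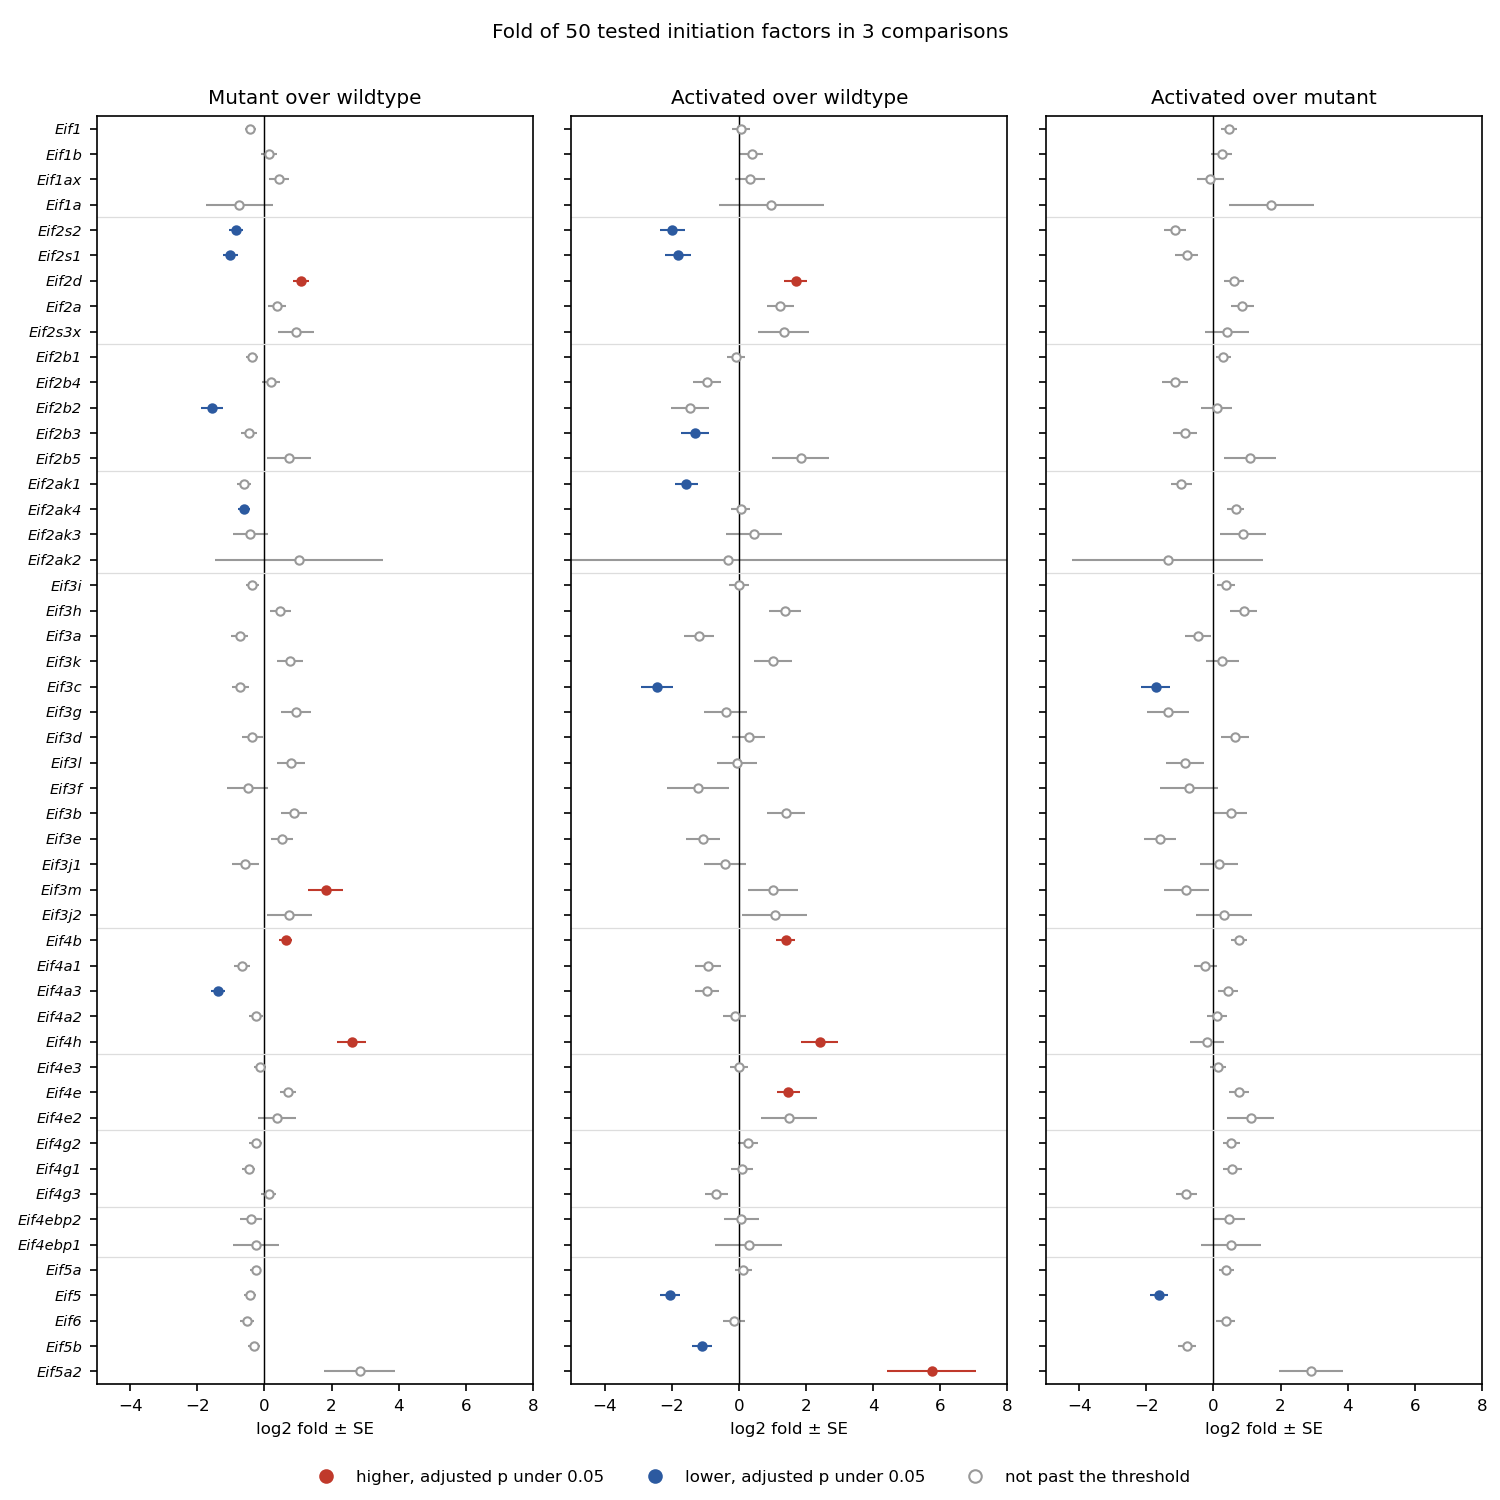
Log2 fold of each tested member with its standard error (bars) in 3 comparisons, ordered by complex; filled points passed an adjusted p of 0.05. The bars of Eif2ak2, which had 27 counts in all, run past the axis for activated over wildtype. Red points are Eif4h, Eif3m, Eif2d and Eif4b on the left, and the only filled points on the right are Eif5 and Eif3c.

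Of 5 tested genes of eIF2 and eIF2-like factors, Eif2s1 and Eif2s2 fell and Eif2d rose. Eif2s1, the alpha subunit that the kinases phosphorylate, stood at 134.6 CPM in wildtype batch 1 and 85.7 in batch 2. In the mutant sums it was 45.8 (M1), 67.1 (M2) and 99.9 (M3) in batch 1, and 37.9, 43.6 and 41 in batch 2. Every mutant sum lay under the wildtype sum of its own batch. The log2 fold was -1.02 ± 0.22 (SE; 6 mutant and 2 wildtype sums, edgeR adjusted p = 0.00738), with -0.996 in batch 1 and -1.07 in batch 2. With 1 sum left out it ran from -1.19 to -0.931. The call was lost over sums per plate, without a batch term or without the wildtype sum of batch 2. Single eggs of batch 2 had a median of 75.3 CPM in 24 wildtype eggs and 32.9 in 49 mutant eggs, with overlapping ranges.

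Eif2s2, the beta subunit, stood at 90.8 and 197 CPM in wildtype batches 1 and 2 and between 62.0 and 92.7 in the mutant sums (median 75.0). M2 of batch 2, at 92.7, overlapped wildtype batch 1. Its log2 fold was -0.84 ± 0.22 (edgeR adjusted p = 0.0195), made up of -0.38 in batch 1 and -1.25 in batch 2. Without the wildtype sum of batch 2 it was -0.38 with an edgeR adjusted p of 0.514, so this call rested on that sum.

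Eif2d can deliver tRNA to the ribosome without eIF2 and acts in recycling. It stood at 34.8 and 26.5 CPM in wildtype and at 44.7 to 81.1 (median 66.3) in mutants, with no overlap. The log2 fold was 1.08 ± 0.24 (edgeR adjusted p = 0.00805), 1.02 in batch 1 and 1.13 in batch 2. In batch 2, Eif2d was detected in 10 of 24 wildtype and 45 of 49 mutant eggs once each egg was thinned to 60000 counts, or 18 of 24 wildtype eggs unthinned. Without the wildtype sum of batch 2, the edgeR adjusted p was 0.0512 at a fold of 1.03. Of the other members in this group, Eif2a (0.38 ± 0.27) and Eif2s3x (0.94 ± 0.53) did not pass.

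Of 5 eIF2B subunits, 1 was called. Eif2b2, the beta subunit, was at 24.02 and 32.5 CPM in wildtype sums and 3.32 to 22.7 (median 9.68) in mutant sums, all of them lower. Its log2 fold was -1.56 ± 0.32 (edgeR adjusted p = 0.00508), -2.02 in batch 1 and -1.02 in batch 2. With eggs thinned to equal depth it was -1.18 (edgeR adjusted p = 0.0870), and without the wildtype sum of batch 1 it was -1.01 (edgeR adjusted p = 0.161). In the batch 2 sums of M1 and M2, a single egg held 41.1% and 47% of its counts.

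The catalytic subunit Eif2b5 had wildtype sums at 1.30 and 7.91 CPM and within-batch mutant folds of opposite sign, 2.65 and -0.58. The difference of fold between batches was -3.35 ± 0.92, with an unadjusted p of 0.00334 in edgeR and an adjusted p of 0.329. Across members, no difference between batches passed this test, 6 were at an unadjusted p under 0.05, and 0% of all 13566 genes tested were called. Within batches, 1 member was called in batch 1 (Eif4h, 3.10 ± 0.55), where 2.79% of genes were (2.09% higher, 0.700% lower). In batch 2 there were 2 (Eif4a3, -1.51 ± 0.31, and Eif2s2, -1.24 ± 0.24), where 4.15% were (2.23% higher, 1.92% lower). DESeq2 and voom were not run for these tests.

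Among the kinases, Eif2ak4 was at 368 and 239 CPM in wildtype and 136 to 318 (median 176) in mutants, overlapping between batches but lower in each batch. The log2 fold of -0.61 ± 0.18 (edgeR adjusted p = 0.0382) was -0.52 in batch 1 and -0.72 in batch 2. It missed the threshold in 10 of 26 alternative analyses, of which the mean log2(CPM + 1) over eggs gave no p-value and could not miss it. Eif2ak1 lay at 302 and 291 CPM in wildtype and at 131 to 286 in mutants, with no overlap, and its fold of -0.60 ± 0.20 did not pass (edgeR adjusted p = 0.0739).

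Of 14 eIF3 genes, 1 was called (7.14%, where 9.38% of all genes were), and 5 were at an unadjusted p under 0.05. Eif3m, a subunit of the eIF3 core, was at 1.52 and 2.14 CPM in wildtype and 3.12 to 12.7 (median 6.98) in mutants. The log2 fold of 1.82 ± 0.53 (edgeR adjusted p = 0.0382) rested on 49 and 10 wildtype counts, 8 of those 10 in 1 egg. It missed the threshold in 13 of 26 alternatives, among them voom, where the mean over eggs again gave no p-value. Eif3b, also without overlap (6.02 and 5.35 CPM against 7.08 to 12.1), had a fold of 0.88 ± 0.40 that did not pass. Eif3a (-0.74 ± 0.26), Eif3c (-0.72 ± 0.26) and Eif3g (0.95 ± 0.45) did not pass either.

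Among the 9 members called, Eif4h had the largest fold. Eif4h, which stimulates the helicase, was at 1.71 and 4.70 CPM in wildtype sums. In mutants it was at 18.6 (M1), 10.1 (M2) and 15.5 (M3) in batch 1, and 21.3, 22.4 and 16.1 in batch 2. All mutant sums lay above both wildtype sums, with a log2 fold of 2.60 ± 0.44 (edgeR adjusted p = 0.00108), 3.05 in batch 1 and 2.04 in batch 2. It was also called in M1 (2.85 ± 0.48), M2 (2.44 ± 0.48) and M3 (2.52 ± 0.48) separately.

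Of the 22 Eif4h counts of wildtype batch 2, 21 lay in egg 45. Without that egg, picked after its counts were seen, the mutant fold was 3.68 (edgeR adjusted p = 2.12e-04). With each egg thinned to 60000 counts, Eif4h was detected in 2 of 24 wildtype and 29 of 49 mutant eggs of batch 2, and in 1 of 5 and 5 of 9 of batch 1. By counting error alone, the mutant sums together exceeded wildtype by 9.07-fold in batch 1 (exact 95% interval 6.91 to 12.1) and 4.17-fold in batch 2 (2.73 to 6.70).

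Eif4a3, a helicase best known as part of the exon junction complex, moved the other way, from 108.6 and 130 CPM in wildtype to 35.5 to 57.01 (median 46.6) in mutants. The groups did not overlap. The log2 fold was -1.39 ± 0.21 (edgeR adjusted p = 4.06e-04), -1.24 in batch 1 and -1.53 in batch 2, and each mutant group was called separately (-1.20, -1.21 and -1.74 in M1, M2 and M3).

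Eif4b, the other helper of the helicase, stood at 235 and 144.5 CPM in wildtype and 222 to 342 (median 289) in mutants. M1 of batch 2 overlapped wildtype batch 1, while each mutant sum exceeded wildtype of its own batch. Its fold of 0.63 ± 0.19 (edgeR adjusted p = 0.0397) was 0.46 and 0.82 by batch and was not called under RLE scaling (0.58, edgeR adjusted p = 0.0595) or in 11 other alternatives. The helicases of initiation proper, Eif4a1 (-0.67 ± 0.24) and Eif4a2 (-0.24 ± 0.21), did not pass.

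Of the 4 eIF1 and eIF1A genes, 3 eIF4E, 3 eIF4G, 2 tested 4E-BP genes or 5 genes of eIF5, eIF5B, eIF5A and eIF6, edgeR called 0 between mutant and wildtype, with 6 of these 17 at an unadjusted p under 0.05. DESeq2 also called 0 and limma voom 1, Eif5a2. Eif4e was at 68.9 and 71.6 CPM in wildtype and 70.6 to 162 in mutants (0.70 ± 0.24, edgeR adjusted p = 0.0718). Eif4g1, the classical scaffold, was lower in every mutant sum (75.3 to 98.7 CPM against 126 and 108.6) at a fold of -0.47 ± 0.20 that did not pass. Over all members, the 6 mutant sums lay above both wildtype sums for 5 (Eif2d, Eif3b, Eif3m, Eif4h and Eif5a2) and below both for 8 (Eif1, Eif2ak1, Eif2b1, Eif2b2, Eif3i, Eif4a3, Eif4g1 and Eif5). Over all tested genes these shares were 10.2% and 6.86%.

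The mutant groups were also taken separately. In M1, M2 and M3, 7, 3 and 6 members were called against wildtype, where 5.65%, 4.58% and 5.25% of all genes were. By direction, 4, 2 and 1 were higher (3.86%, 3.31% and 3.25% of genes) and 3, 1 and 5 lower (1.79%, 1.27% and 2.00%). Members called in a single mutant group and not in the pooled comparison were Eif3g (1.86 ± 0.53) and Eif3k (1.58 ± 0.45) in M1, and Eif3c (-1.18 ± 0.33) and Eif6 (-1.01 ± 0.26) in M3. They were tested directly over 9 sums per mutant group and plate, with batch 1 taken as 1 plate. There edgeR called 0 of 49 members between M1, M2 and M3, with 3 at an unadjusted p under 0.05, where 0.00861% of 11609 genes were called. Pair by pair it was again 0 of 49, with 10 unadjusted for M3 against M1, where 0.0517% of genes were called (0.0431% lower), 4 for M2 against M1 and 1 for M3 against M2, where 0% were. DESeq2 and voom were not run for that test.

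Activated eggs were compared with wildtype eggs to ask what strontium activation changes. The activated group is 1 sum, assumed to vary like the others, and it shares both wildtype sums with the mutant comparison. Of 50 members, 5 rose and 7 fell (24%), where 13% of all genes were called, 5.66% higher and 7.33% lower. The median log2 fold was 0.05 for members and 0.15 for all genes. Under upper quartile scaling the median of all genes moved to 0.30, and the higher share of all calls went from 43.6% to 54.1%.

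Of the eIF2 genes, Eif2s1 and Eif2s2 were lower in activated eggs and Eif2d higher, while the gamma subunit Eif2s3x, at 6.69 CPM against 3.32 and 2.14, did not pass (1.34 ± 0.76). Eif2s1 was at 23.8 CPM, below all other sums, with a fold of -1.82 ± 0.39 (edgeR adjusted p = 0.00460). Eif2s2 was at 40.6 CPM, also the lowest of the 9, with a fold of -1.99 ± 0.38 (edgeR adjusted p = 0.00182). Eif2d was at 88.1 CPM, the highest of the 9, with a fold of 1.69 ± 0.34 (edgeR adjusted p = 0.00253), and was detected in all 17 activated eggs at 60000 counts.

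Of the eIF2B subunits, Eif2b3, a subunit of eIF2B, was at 20.9 CPM against 77.2 and 45.1 in wildtype, a fold of -1.31 ± 0.41 (edgeR adjusted p = 0.0396). That call was lost under upper quartile scaling (-1.16, edgeR adjusted p = 0.0670) and in 6 other alternatives. The kinase Eif2ak1 was at 124.4 CPM against 302 and 291, a fold of -1.57 ± 0.35 (edgeR adjusted p = 0.00639), and Eif2ak4 at 236 CPM against 368 and 239 (0.05 ± 0.29) did not pass. Exons of Aimp2, on the other strand, overlap 8.59% of those of Eif2ak1.

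Eif3c, a core subunit of eIF3, was at 10.7 CPM in activated eggs against 24.5 and 53.9 in wildtype. Its log2 fold was -2.45 ± 0.47 (edgeR adjusted p = 0.00195), and it was the only one of 14 subunits called. Eif3h (1.37 ± 0.46, edgeR adjusted p = 0.0593) was highest in activated eggs, at 32.4 CPM, without passing.

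Helpers of the helicase and the cap-binding protein were higher. Eif4h was at 18.8 CPM, a fold of 2.41 ± 0.55 (edgeR adjusted p = 0.00718), and was detected in 13 of 17 activated eggs at 60000 counts. With thinned eggs its fold was 1.74 (edgeR adjusted p = 0.136), and without egg 45 of wildtype it was 3.74. Eif4b was at 419 CPM, above all 8 other sums, a fold of 1.39 ± 0.28 (edgeR adjusted p = 0.00244).

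Eif4e was at 229 CPM in activated eggs, against 68.9 and 71.6 in wildtype and at most 162 in mutant sums. The fold was 1.47 ± 0.34 (edgeR adjusted p = 0.00814). Single activated eggs ran from 87.2 to 398 CPM (median 233), and wildtype eggs of batch 2 from 0 to 195 (median 70.4). Without the wildtype sum of batch 2 the fold was 1.16 (edgeR adjusted p = 0.0815). Its abundant paralog Eif4e3 stood at 461 CPM against 533 and 483 and did not pass.

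**Figure D4:**
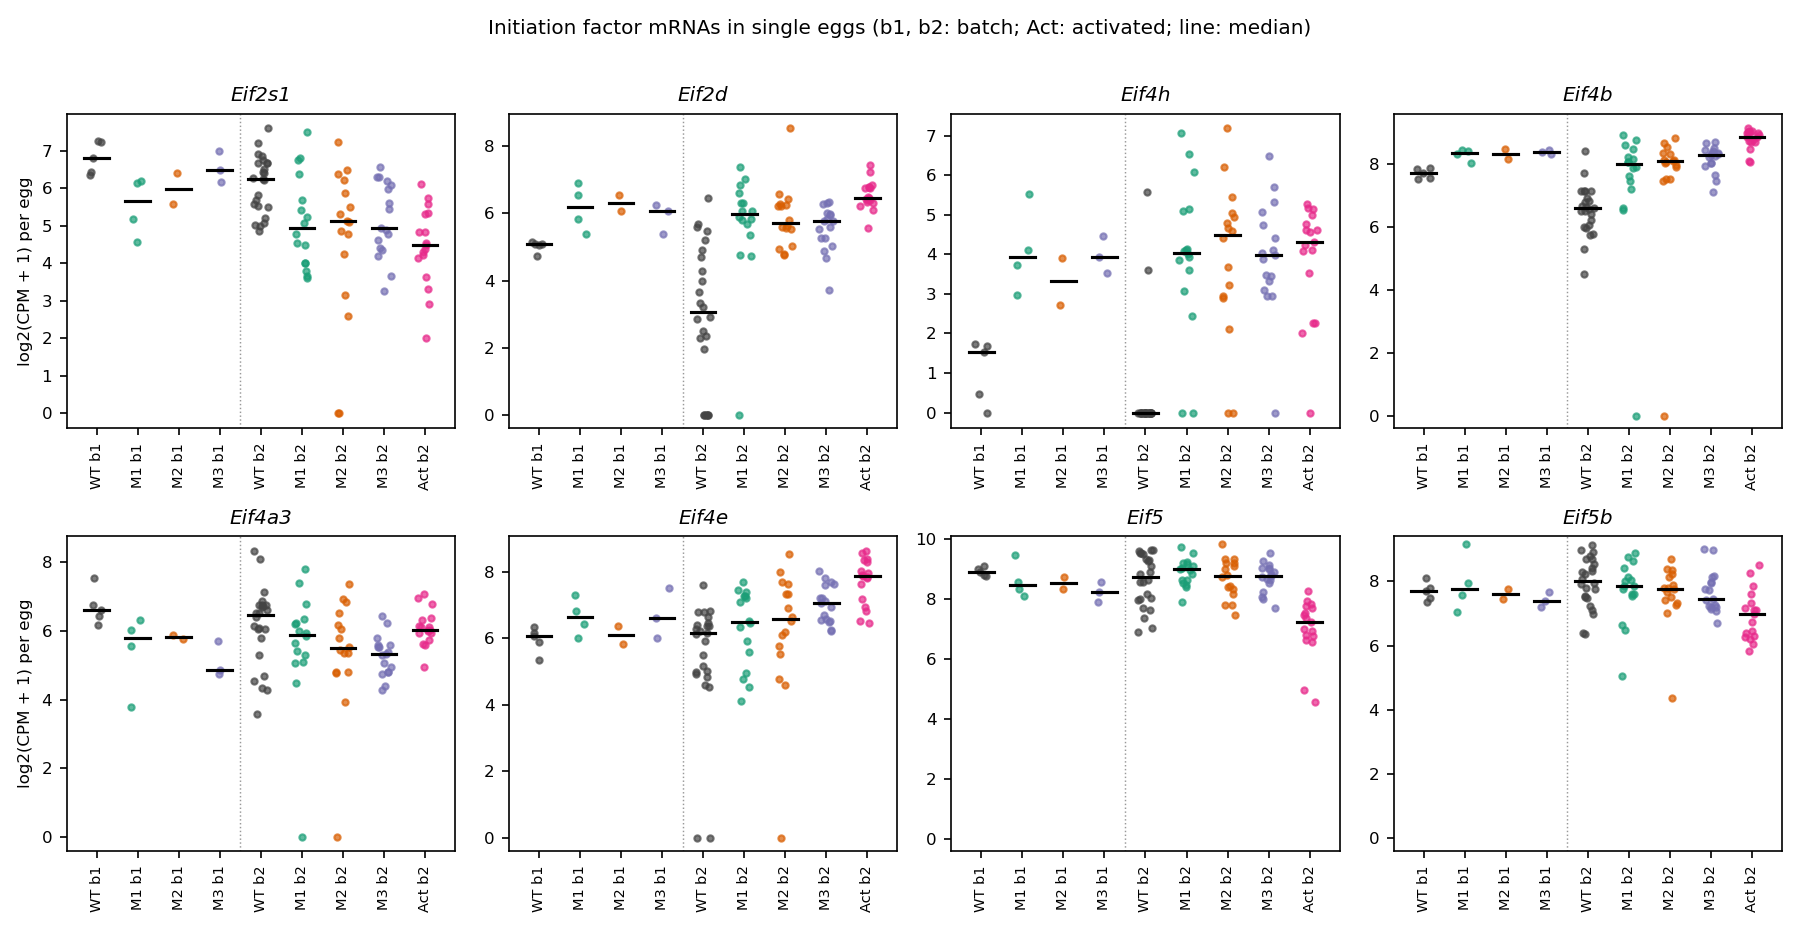
Level of 8 members in single eggs of at least 10000 counts, as log2(CPM + 1), by group and batch; bars are medians. Most wildtype eggs of batch 2 lie at 0 for Eif4h, Eif4b and Eif4e are highest in activated eggs (medians 465 and 233 CPM), and Eif5 is lowest there (median 150 CPM).

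Eif5 and Eif5b were both lower. Eif5, which triggers GTP hydrolysis by eIF2, was at 138.3 CPM in the activated sum, against 546 and 529 in wildtype and 325 to 499 (median 400) in mutants. The activated value lay far below all 8 others, with a log2 fold of -2.04 ± 0.30 (edgeR adjusted p = 2.43e-04). Single activated eggs ran from 22.6 to 311 CPM (median 150), and wildtype eggs of batch 2 from 120 to 803 (median 430), so the ranges overlapped. Eif5b, which joins the large subunit, was at 135.04 CPM against 235 and 317, a fold of -1.11 ± 0.30 (edgeR adjusted p = 0.0193), or -0.91 without the wildtype sum of batch 2 (edgeR adjusted p = 0.0948). Exons of Rev1, on the other strand, cover 16.8% of those of Eif5b.

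Eif5a2, the scarce copy of eIF5A, was at 5.87 CPM in activated eggs (86 counts) and 0.310 and 0.214 CPM in wildtype, the latter a single count. It was called at a fitted log2 fold of 5.75 ± 1.32 (edgeR adjusted p = 0.00718), a size that depends on those few counts. Within batch 2 the ratio was 27.5, with an exact 95% counting interval of 4.80 to 1097. Of 17 activated eggs, 7 had it at 60000 counts, and 0 of 24 wildtype eggs of batch 2 did. Eif5a itself was at 983 CPM against 1102 and 898 (0.13 ± 0.26) and did not pass, and neither did Eif6 (-0.15 ± 0.33).

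Compared with mutant eggs, 2 of 50 members differed in activated eggs, 0 higher and both of them lower, where 4.84% of all genes were called (1.42% higher, 3.43% lower). DESeq2 called 6, where 6.83% of all genes were called, and limma voom 2, where 4.85% were. Under upper quartile scaling the higher share of all calls here moved from 29.3% to 48.5%. Eif5, at 138.3 CPM against 325 to 499, had a fold of -1.62 ± 0.27 (edgeR adjusted p = 0.00214). Eif3c, at 10.7 CPM against 9.16 to 56.2, overlapped M3 of batch 1, with a fold of -1.73 ± 0.42 (edgeR adjusted p = 0.0232). That second call was lost without eggs 6 and 21 of M1 (-1.66, edgeR adjusted p = 0.0565) and with thinned eggs (-1.29, edgeR adjusted p = 0.131). Eif4h differed by -0.19 ± 0.50, Eif2d by 0.61 ± 0.29, Eif4b by 0.76 ± 0.24 and Eif2s1 by -0.80 ± 0.34, none past the threshold.

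Without the batch term no member was called in any of the 3 comparisons. Over all genes, that fit called 0.369% for mutant against wildtype, 1.42% for activated against wildtype and 0.253% for activated against mutant. The granulosa and cumulus marker total was also lower in the activated sum, at 101.9 CPM, and of 10 egg markers 4 were called lower and 2 higher in mutants and 4 lower in activated eggs, each against wildtype. Their part in these results was not tested.

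Genes that act on or beside the initiation factors, termination factors among them, were 47 listed and 45 tested. They gave 3 higher and 3 lower in mutants, or 13.3%, where 9.38% of all genes were called (5.36% higher, 4.03% lower). Mtor, the kinase above 4E-BP and TOP mRNAs, was at 161 and 74.4 CPM in wildtype and 47.7 to 65.04 in mutants (-1.09 ± 0.23, edgeR adjusted p = 0.00590). Gcn1, the activator of Eif2ak4, fell by 1.07 ± 0.17 on the log2 scale and Paip1, a poly(A)-binding protein partner, by 0.67 ± 0.19. Etf1, the release factor eRF1, rose by 0.99 ± 0.24, Nck1, an adaptor, by 1.31 ± 0.33, and Pabpc1l, the embryonic poly(A)-binding protein, by 2.15 ± 0.51.

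In activated eggs 2 of the 45 were higher and 5 lower, or 15.6%, where 13% of all genes were called (5.66% higher, 7.33% lower). Etf1 (1.86 ± 0.34) and its partner Gspt1 (1.35 ± 0.40) rose. Mknk1, a kinase of eIF4E, was at 17.5 CPM against 137 and 93.4 in wildtype (-2.61 ± 0.37, edgeR adjusted p = 1.78e-04), and Gcn1 at 92.2 CPM against 1303 and 640 (-2.82 ± 0.31, edgeR adjusted p = 2.78e-05). Mtor (-1.46 ± 0.40), Larp4 (-1.22 ± 0.34) and Paip1 (-1.21 ± 0.33) fell as well. Directly against mutants, Mknk1 (-2.48 ± 0.34) and Gcn1 (-1.75 ± 0.28) were the 2 called.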

How the data were processed

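The authors deposited whole-number counts per gene symbol for 107 eggs, with no normalization. The submitters' processing notes name STAR, HTSeq, GRCm38 and mm10, without versions. Which annotation and strand option were used is not given here. Batch is a label of its own, plates come from the library names, and the deposited egg table gave growth numbers. Positions, exon lengths and 3′ ends are from GENCODE M21, starts from RefSeq.

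Here, the eggs of a group in a batch were added up. In edgeR 4.0.16 (R 4.3.3), genes passing filterByExpr at a minimum count of 10 (13832) were fitted by robust quasi-likelihood with group and batch terms, TMM scaling, 3 residual degrees of freedom and Benjamini-Hochberg adjustment over all genes at 0.05. Standard errors are the log2 fold over the square root of F. Within-batch folds are differences of log2 scaled CPM, with 0.5 added to each count and the 3 mutant groups averaged on the log2 scale. The fit was tested on data simulated from its own estimates, with sums drawn independently. That test cannot show whether the real sums act as replicates. Intervals and floors (3 counts) cover counting error only. Precision follows depth, lowest for wildtype batch 2. Mutant groups were compared over sums per plate. Values are relative to totals.

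Members called in any of the 3 comparisons, leading members of complexes, called paralogs and called regulators are named. The members and lists were chosen with earlier results of these data known. Alternatives were other scalings, no filter, DESeq2 1.42.0, limma 3.58.1 voom, no batch term, other sums, thinned or left-out eggs and mean log2(CPM + 1) over eggs.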

Additional observations from a re-analysis of the deposited data

Results flagged for a closer look

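Eif2d in wildtype egg 5 of batch 1 stood at 25.6 CPM, apart from the other 4 eggs (median 32.98). Eif5a2 in M1 egg 9 of batch 1 stood at 10.2 CPM, apart from the other 3 (median 0.708). The gap to the nearest egg passed Dixon's 95% limit in these 2 of 32 tests of a gene in a group, a limit that chance passes in about 1 of 20 groups, so 2 is near the number chance gives.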

How the results depend on the processing

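The mutant count (9) became 0 without a batch term, 3 over sums per plate and 5 to 9 with 1 sum left out, lowest without wildtype batch 2. Over all genes the share called was 9.38% and became 0.369%, 3.06% and 5.40 to 10.2%, also lowest without wildtype batch 2. The activated count (12) became 0, 6 and 11 to 14. Against mutants, the activated count (2) became 5 with no expression filter, 6 with DESeq2, 0 without a batch term, 1 per plate, 1 without eggs 6 and 21 of M1 and 1 to 7 with 1 sum left out. M1 (7) became 0 without a batch term, 1 per plate, 4 without the 9 concentrated wildtype eggs and 0 to 7 with 1 sum left out. M2 (3) became 6 with no filter, 6 with DESeq2, 5 with limma voom, 0 without a batch term, 1 per plate, 8 without egg 45 of wildtype and 1 to 5 with 1 sum left out. M3 (6) became 11 with no filter, 0 without a batch term, 2 per plate, 3 with thinned eggs and 1 to 6 with 1 sum left out. The cause of these moves was not tested. For M1, M2 and M3 separately, shares over all genes under the alternatives were not computed. Leaving out eggs 6 and 21 of M1, egg 8 of M3, egg 14 of M2 or egg 45 of wildtype was chosen after seeing the data. No called member reversed its direction in any alternative tested by a fit. No paired analysis was possible because replicate numbers only name single eggs, which were summed. Wildtype batch 2, the shallowest sum, limits scarce members such as Eif4h, Eif3m and Eif5a2.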
